A study of Mus musculus with 12 samples.

Results

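Argonaute (Ago) peaks that the authors placed in no gene, and that carried no seed match code for any microRNA of the miR-144/451 locus, were described in mouse fetal liver. They were taken by rule from the authors' peak table, as the peaks of the feature class "intergenic" whose codes for miR-451a, miR-144-3p and miR-144-5p were all 0. This gave 13382 of 106382 peaks (12.6%), or 13382 of the 22189 intergenic peaks, and they are called uncoded intergenic peaks below. No read count entered the rule. HITS-CLIP crosslinks RNA to a protein, precipitates the complex and sequences the bound fragments. Here it was performed on cells of C57BL/6J fetal livers. The 4 groups of 3 libraries were KO Ago (libraries 3, 12 and 13) and WT Ago (1, 9 and 10), precipitated with an Ago antibody, and KO IgG (4, 8 and 14) and WT IgG (2, 6 and 11), precipitated with control IgG. KO embryos were miR-144/451-/- and WT embryos carried the intact locus. The sources used here do not give the age of the embryos, how the locus was deleted or which Ago and IgG libraries share a liver. P-values measure the spread between these libraries, which may be technical.

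Ago proteins carry microRNAs and dwell on RNAs that pair with the microRNA seed, bases 2 to 8. In fetal liver, the main site of red cell production before birth, miR-451a and miR-144-3p are abundant microRNAs of erythroid cells. IgG of no known specificity brings down RNA that does not depend on Ago, and serves as the background of the method. The mature microRNAs whose seed matches decided membership are shown with the seed in capitals (RefSeq, GRCm38.p6), because a peak entered only where no match, offset match or single-mismatch match to them was coded.
miR-451a: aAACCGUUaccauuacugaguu
miR-144-3p: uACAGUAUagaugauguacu
miR-144-5p: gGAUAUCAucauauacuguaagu

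The libraries held 147969 to 341061 reads in peaks in KO Ago and 202876 to 452157 in WT Ago, against 24622 to 42916 in KO IgG and 25985 to 42399 in WT IgG. No peak of the table lay over the deleted locus, so the genotype could not be checked there. Erythroid marker genes took 1.24% to 1.52% of peak reads in KO Ago and 1.72% to 2.06% in WT Ago, and hepatocyte genes 1.23% to 2.40% in KO Ago and 0.659% to 1.96% in WT Ago. In IgG the genotypes overlapped for both lists. Erythroid genes took 1.43% to 2.49% in KO IgG and 1.27% to 2.29% in WT IgG. Hepatocyte genes took 1.88% to 2.75% in KO IgG and 1.68% to 2.48% in WT IgG. Macrophage genes took at most 0.0394% and megakaryocyte genes at most 0.0210% in any library. These are shares of precipitated reads in peaks and not RNA levels. In bulk tissue, fewer cells of a type and less RNA per cell cannot be told apart. The cause of the difference between KO Ago and WT Ago was not tested.

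The uncoded intergenic peaks were short and thinly read. Their width had a median of 21 bases (16 to 149), against 27 bases over all peaks. The median peak height, the authors' maximum coverage over the pooled Ago libraries, was 8 reads in these peaks and 9 over all peaks. A median member held 8 Ago reads over 6 libraries, and the highest held 403. A width of 20 bases or less was found for 4753 of the 13382 peaks (35.5%), against 2656 of the 8807 intergenic peaks with a locus code (30.2%).

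RefSeq placed many of these peaks inside genes that the authors' annotation did not assign. A gene body lay over 5951 of them (44.5%). For 3027 peaks the gene ran on the opposite strand, for 857 on the same strand, and for 2067 the strand of the gene was not in the tables used here. Of the remaining peaks, 270 lay within 5 kb downstream of a gene on the same strand, 217 within 5 kb upstream, and 6944 were in neither class. Only nearby genes with a strand in these tables were counted, so the 6944 may include peaks near genes of unknown strand. By gene type, 3952 peaks lay over protein-coding genes, 1259 over long noncoding RNA genes, 881 over pseudogenes and 88 over tRNA genes.

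Most members stood alone. With a gap of at most 1000 bases on 1 strand, they formed 12383 runs, of which 11906 held a single peak and 108 held 4 or more. Runs differed from singles in the authors' IgG ratio more than in summed reads. The authors' IgG ratio, the IgG peak height over the Ago peak height, had a median of 0.0890 over the 640 members of runs of 4 or more and 0.216 over single members. Ago reads over IgG reads in sum were 3.16 for runs of 4 or more, 1.98 for runs of 2 or 3 and 2.92 for singles. Of the members in such runs, 24.8% lay in a gene on the same strand, against 5.20% of single members. The longest run held 26 peaks over 5 kb on the same strand as Hipk2, which encodes a nuclear kinase (chr6:38687589-38692583, minus strand). It had 212 reads in KO Ago and 251 in WT Ago, against 30 in KO IgG and 14 in WT IgG. A run of 24 peaks 1122 bases from Lnpep, which encodes a membrane aminopeptidase, had 202 reads in KO Ago and 240 in WT Ago, against 13 in KO IgG and 11 in WT IgG. Runs wholly or partly over Klhl11, Tnfrsf14 and Zfp871, on the gene's own strand, had the same form, with 110, 122 and 87 reads in KO Ago, 101, 129 and 98 in WT Ago, and at most 15 reads in either IgG group. None of the 20 tested members of runs of 4 or more passed the test between KO Ago and WT Ago. Of all 116 tested members 3 were lower and 2 higher, and 19.1% of all 2425 peaks tested passed.

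Other runs had as many IgG as Ago reads or more. A run of 5 peaks on the strand of Gm19951, a predicted gene, had 71 reads in KO Ago and 98 in WT Ago, against 259 in KO IgG and 188 in WT IgG. A run of 4 peaks 94 bases from Gm4799 had 163 reads in KO Ago and 146 in WT Ago, against 223 in KO IgG and 175 in WT IgG, although each IgG library was shallower than any Ago library.

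The share of a library's peak reads that fell in uncoded intergenic peaks separated Ago from IgG and not KO from WT. It was 13.5%, 7.28% and 11.7% in KO Ago libraries 3, 12 and 13, and 11.5%, 6.77% and 11.2% in WT Ago libraries 1, 9 and 10. It was 25.6%, 31.0% and 28.8% in KO IgG libraries 4, 8 and 14, and 23.0%, 29.9% and 26.4% in WT IgG libraries 2, 6 and 11. Every IgG library lay above every Ago library, and the genotypes overlapped within each antibody. KO Ago averaged 10.8% ± 3.21 and WT Ago 9.81% ± 2.64, a difference of 1.04 percentage points (SD, n = 3 each; exact two-sided permutation p = 0.5). KO IgG averaged 28.5% ± 2.73 and WT IgG 26.5% ± 3.45 (SD, n = 3 each; exact permutation p = 0.5). Ago minus IgG was -17.6 percentage points in KO and -16.655 in WT, each with an exact permutation p of 0.1, the smallest that 3 against 3 libraries allow. Within each genotype, the deepest Ago library had the lowest share.

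**Figure D1:**
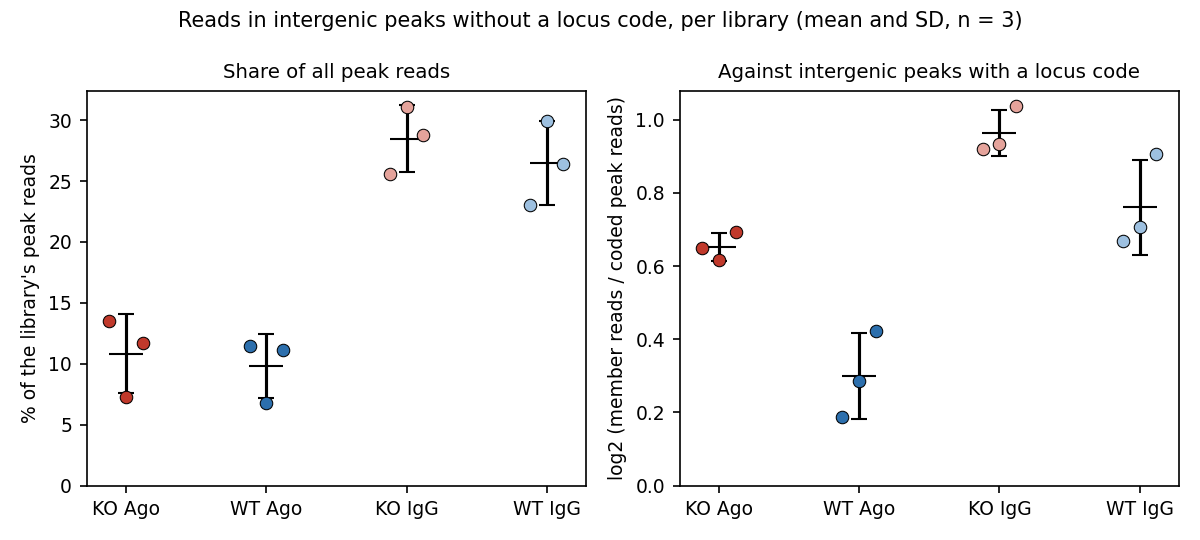
Left, the share (%) of each library's peak reads in uncoded intergenic peaks; right, log2 of the reads in these peaks over the reads in intergenic peaks with a locus code. Points are libraries, bars are mean and SD (n = 3). On the left, the IgG libraries sit between 23.0% and 31.0%, above all Ago libraries; on the right, KO lies above WT without overlap within each antibody.

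Relative to the intergenic peaks that did carry a locus code, these peaks took more of the reads in KO than in WT. The log2 ratio of uncoded to coded intergenic reads was 0.65 ± 0.04 in KO Ago and 0.30 ± 0.12 in WT Ago (SD, n = 3 each), a difference of 0.35 without overlap (exact permutation p = 0.1, the smallest possible). The IgG libraries differed in the same direction, with 0.96 ± 0.06 in KO IgG and 0.76 ± 0.13 in WT IgG, a difference of 0.20 (SD, n = 3 each; exact permutation p = 0.1). Against intron peaks without a locus code, the log2 ratio was 0.73 ± 0.34 in KO Ago and 0.79 ± 0.34 in WT Ago (SD, n = 3 each; exact permutation p = 0.7), a difference within the spread between libraries. Adjusted over the 8 share and ratio comparisons made, the exact permutation p was 0.2 for the 4 without overlap (both Ago to IgG shares and both ratios to coded peaks) and at least 0.667 for the other 4, so none passed at 0.05, which this design cannot reach.

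Read numbers in many of these peaks did not grow with sequencing depth. The deepest Ago library, WT library 9, had 3.06 times the peak reads of the shallowest, KO library 13. Over the 1347 members with an IgG ratio of at least 1, KO library 13 had 2571 reads and WT library 9 had 3122, or 1.21 times as many. Over the same members the shallower IgG libraries had 4018 to 5434 reads in KO and 3888 to 5713 in WT, more than the 2571 to 3443 of KO Ago and the 2741 to 3130 of WT Ago. The ratio was taken from these same libraries, so this order of IgG and Ago followed from the split and is a description. Over the 6392 members with an IgG ratio under 0.2, KO library 13 had 6471 reads and WT library 9 had 15558, or 2.40 times as many. The variance over the mean of a peak's raw reads in the 6 Ago libraries had a median of 0.486 over the members with an IgG ratio of at least 1, 1.18 over those under 0.2, and 1.30 over all peaks. Pure counting at equal depth gives 1 on average. These libraries differed in depth and medians are given, so 1 is not an exact reference here. No source used here says whether identical reads were merged before counting.

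**Figure D2:**
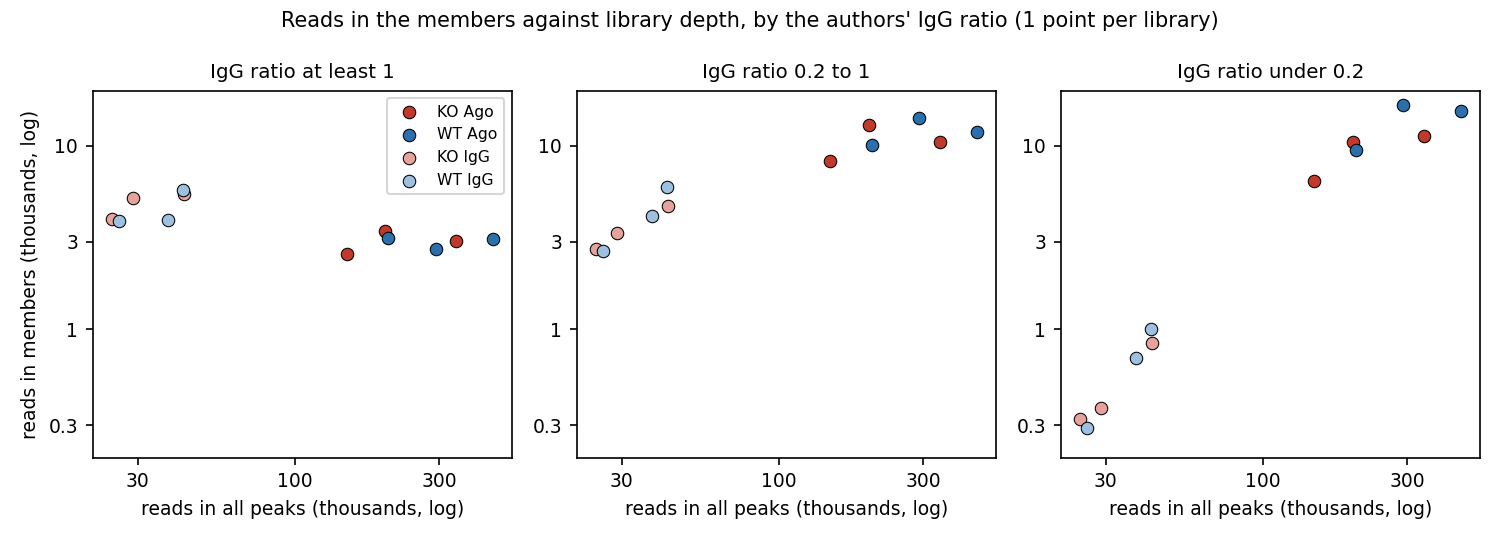
Reads in uncoded intergenic peaks (in units of 1000 reads, log axis) against reads in all peaks (same unit, log axis), 1 point per library, split by the authors' IgG ratio of each peak. With a ratio of at least 1, the Ago libraries stay between 2571 and 3443 reads over a 3.06-fold range of depth. Under 0.2, IgG libraries have 291 to 1009 reads and Ago libraries 6471 to 16584. The ratio comes from these same libraries, so the order of IgG and Ago in each panel follows from the split.

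An IgG ratio of at least 1 was found for 10.1% of the uncoded intergenic peaks, against 4.46% of intergenic peaks with a locus code, 6.77% of uncoded intron peaks and 2.71% of all peaks. In the other direction, 47.8% had a ratio under 0.2, against 71.6% of all peaks. No IgG read was present in 4431 members (33.1%), against 50.7% of all peaks. The ratio is not scaled for depth, and the IgG libraries were the shallower ones.

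Tested peak by peak, 83 of 208 uncoded intergenic peaks were lower in KO Ago than in KO IgG and 12 were higher (edgeR quasi-likelihood test, Benjamini-Hochberg adjusted p under 0.05). Over all 645 peaks tested in KO, 23.3% were lower and 40.0% higher (63.3% in either direction). The median log2 difference of the 208 was -0.99, against -0.17 over all tested peaks. In WT, 177 of 235 were lower in Ago than in IgG and 3 were higher, against 37.9% lower and 35.9% higher (73.8% in either direction) over the 894 peaks tested, with medians of -1.59 and -0.14. These directions are relative to TMM scaling on the tested peaks. With library sizes taken over the whole peak table, a scaling added after seeing the data, the median of all tested peaks was -2.86 in KO and -2.38 in WT, and 203 of the 208 in KO and 232 of the 235 in WT were lower, with 1 higher in each.

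Of the 159 members tested in both genotypes, 57 were lower and 2 higher than IgG in both, and none was called in opposite directions. The matching counts over all peaks tested in both genotypes were not made, so these cannot be read as particular to the members. All members called lower in KO, and 176 of the 177 called lower in WT, had an IgG ratio of at least 1. The ratio comes from the same libraries, so this is a description.

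**Figure D3:**
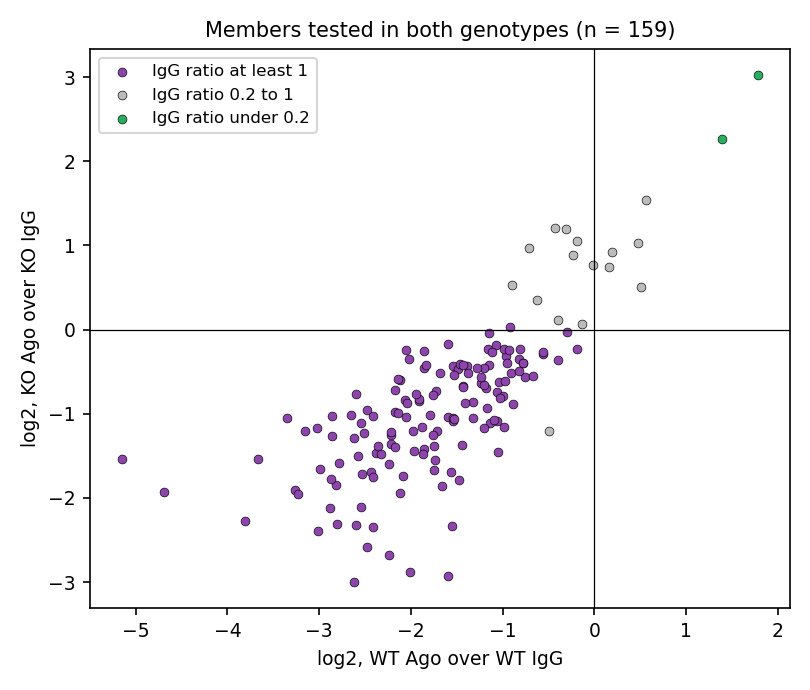
Log2 of KO Ago over KO IgG (vertical) against log2 of WT Ago over WT IgG (horizontal) for the 159 uncoded intergenic peaks tested in both genotypes, edgeR with TMM scaling; colour gives the authors' IgG ratio. Nearly all peaks with a ratio of at least 1 lie below 0 on both axes, and the 2 peaks called higher in both lie at the upper right.

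The 5 peaks below WT IgG with the smallest p had reads in every IgG library and few in Ago. The peak at chr5:143154708-143154735 (minus strand, 2396 bases from Gm7291) had 5, 2 and 1 reads in KO Ago and 0, 1 and 0 in WT Ago, against 7, 7 and 9 in KO IgG and 12, 10 and 7 in WT IgG. Its log2 difference from IgG was -1.54 ± 0.48 in KO (SE, edgeR adjusted p = 0.018) and -5.15 ± 0.58 in WT (adjusted p = 2.4e-04). The peak at chr13:107121990-107122083, over the predicted gene Gm31452 on the same strand, had 3, 5 and 5 reads in KO Ago and 3, 2 and 3 in WT Ago, against 25, 16 and 6 in KO IgG and 11 in each WT IgG library. The peaks at chr10:125070186-125070204, chr13:103795189-103795211 and chr14:19279315-19279342, all in no RefSeq gene, had 0 or 1 read in each WT Ago library and 3 to 11 reads in each WT IgG library. In these last 3 peaks the KO Ago libraries had 1 to 4 reads each.

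The highest Ago levels were mostly levels that IgG matched in raw reads, although each IgG library was shallower than any Ago library. Of the 10 members with the highest mean level over the Ago libraries, 8 had IgG ratios between 0.922 and 1.36. Among these 8, the peak at chr15:86194780-86194801 was called lower in WT Ago than WT IgG (log2 -1.21 ± 0.40, edgeR adjusted p = 0.016), a call lost in 5 alternatives. The pair at chr4:122122910-122122972 and chr4:122455275-122455337 had identical reads in all 12 libraries, 39, 45 and 37 in KO Ago and 31, 57 and 41 in WT Ago, against 54, 65 and 34 in KO IgG and 26, 60 and 39 in WT IgG. They share their reads and count as 1 observation. The peak at chr8:3754530-3754555 carried a 7-mer-m8 match code for miR-21a-5p and had 26, 37 and 26 reads in KO Ago and 21, 24 and 23 in WT Ago, against 29, 21 and 17 in KO IgG and 16, 24 and 19 in WT IgG. None of these 8 passed the test between KO Ago and WT Ago (19.1% of all 2425 peaks tested did), with edgeR log2 changes from -0.11 to 0.60.

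The other 2 of the 10 lay in 1 run on chromosome 12, over the predicted genes Gm32398 and Gm40238, whose strand is not in the tables used here. The peak at chr12:5643357-5643379 had 52, 56 and 30 reads in KO Ago and 26, 42 and 20 in WT Ago, against 7, 8 and 11 in KO IgG and 6, 4 and 8 in WT IgG. It was higher than IgG in KO (log2 2.27 ± 0.48, edgeR adjusted p = 0.0025) and in WT (log2 1.39 ± 0.48, adjusted p = 0.019). Its neighbour at chr12:5643150-5643184, which carried a 6-mer code for miR-16-5p, had 74, 55 and 52 reads in KO Ago and 119, 72 and 31 in WT Ago, against 17, 2 and 3 in KO IgG and 22, 8 and 5 in WT IgG. It was higher than IgG by 3.03 ± 0.59 in KO (edgeR adjusted p = 0.0019) and by 1.78 ± 0.59 in WT (adjusted p = 0.016). These calls depended on the setting. In WT, the first peak was at 0.46 to 0.98 and not called without any 1 of the WT IgG libraries, and it was also not called with library size alone, no filter or a minimum count of 5. In KO, it was at 1.04 without IgG library 4 and 1.08 without IgG library 8, neither called, and it was also not called with no filter or a minimum count of 5. The second peak ranged over 0.69 to 3.26 in WT and 1.36 to 3.67 in KO when 1 library was left out, and lost its call without WT IgG library 6 or 11 and without KO IgG library 8, and in both genotypes with no filter. With a minimum count of 5 it was called in KO and not in WT. With library sizes over the whole table, the first peak was at -0.44 in KO and -0.90 in WT, and the second at 0.46 in KO and -0.43 in WT, none past the threshold.

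Above IgG under that scaling too were a peak in KO and a peak in WT. The Klhl11 peak at chr11:100459337-100459371, on the strand of this gene of a ubiquitin ligase adaptor, had 27, 38 and 17 reads in KO Ago and 28, 28 and 15 in WT Ago, against 1, 1 and 0 in KO IgG and 3, 1 and 0 in WT IgG. Its log2 difference between KO Ago and KO IgG was 5.05 ± 0.64 (edgeR adjusted p = 7.5e-04) and 2.49 with whole-table library sizes (adjusted p = 0.012). The peak at chr6:29298707-29298753, described below, was higher in WT Ago than WT IgG by 4.17 ± 0.66 (adjusted p = 2.9e-04), and by 2.04 with whole-table sizes (adjusted p = 0.025). Of the 12 peaks called higher in KO Ago than KO IgG, 9 changed sign under at least 1 alternative, and these were 20 to 23 bases wide with log2 values from 0.97 to 2.27.

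Between KO and WT, few uncoded intergenic peaks passed the test. In Ago libraries, 116 members had enough reads to be tested; 3 were lower in KO and 2 were higher (edgeR adjusted p under 0.05). Over all 2425 peaks tested, 17.6% were lower and 1.4% higher (19.1% in either direction). Of intergenic peaks with a locus code, 23 of 135 were lower, and of uncoded intron peaks 7 of 90. The median log2 change of the 116 was 0.26, against 0.09 over all tested peaks. Without adjustment, 4 were lower and 8 higher at an edgeR p under 0.05, against 506 lower and 135 higher of all 2425 peaks tested.

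The member lowest in KO by adjusted p lay over a pseudogene. The peak at chr13:19994845-19994871 (minus strand, over Gm5446) had 1, 2 and 1 reads in KO Ago and 17, 23 and 13 in WT Ago, against 0, 0 and 1 in KO IgG and none in WT IgG. All KO Ago libraries lay below all WT Ago libraries, and the log2 change was -3.38 ± 0.49 (SE, edgeR adjusted p = 1.6e-04). Its counts equalled those of a 3′ UTR peak of Srsf10, a splicing factor gene, in all 12 libraries, so these reads cannot be assigned to either place.

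The peak at chr7:118762308-118762334 (minus strand, inside Vps35l, a gene of endosomal recycling) had 1, 2 and 0 reads in KO Ago and 13, 21 and 10 in WT Ago, against none in KO IgG and 0, 2 and 1 in WT IgG. Its log2 change was -3.49 ± 0.57 (edgeR adjusted p = 3.1e-04). The peak at chr12:3697992-3698009 (minus strand, opposite to Dtnb, which encodes beta-dystrobrevin) had 2, 0 and 0 reads in KO Ago and 20, 19 and 12 in WT Ago. Its log2 change was -4.22 ± 0.70 (edgeR adjusted p = 3.7e-04). In IgG it had 1, 0 and 1 reads in KO and 6, 8 and 1 in WT. This 18-base peak had 2 reads in KO IgG and 15 in WT IgG in sum, too few for the test between IgG libraries.

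Both members higher in KO had reads in all Ago libraries. The peak at chr10:91182095-91182126 (minus strand) lay over n-TDgtc16, a tRNA gene for aspartate. It had 13, 16 and 12 reads in KO Ago and 5, 5 and 8 in WT Ago, against 5, 1 and 2 in KO IgG and 0, 0 and 2 in WT IgG, a log2 change of 1.40 ± 0.45 (edgeR adjusted p = 0.038). The peak at chr12:5643357-5643379, given above, changed by 0.93 ± 0.29 (edgeR adjusted p = 0.038) with overlapping raw reads in KO Ago and WT Ago, while its neighbour in the same run was at 0.02 ± 0.42 (adjusted p = 0.98). DESeq2 called no member higher and 3 lower.

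**Figure D4:**
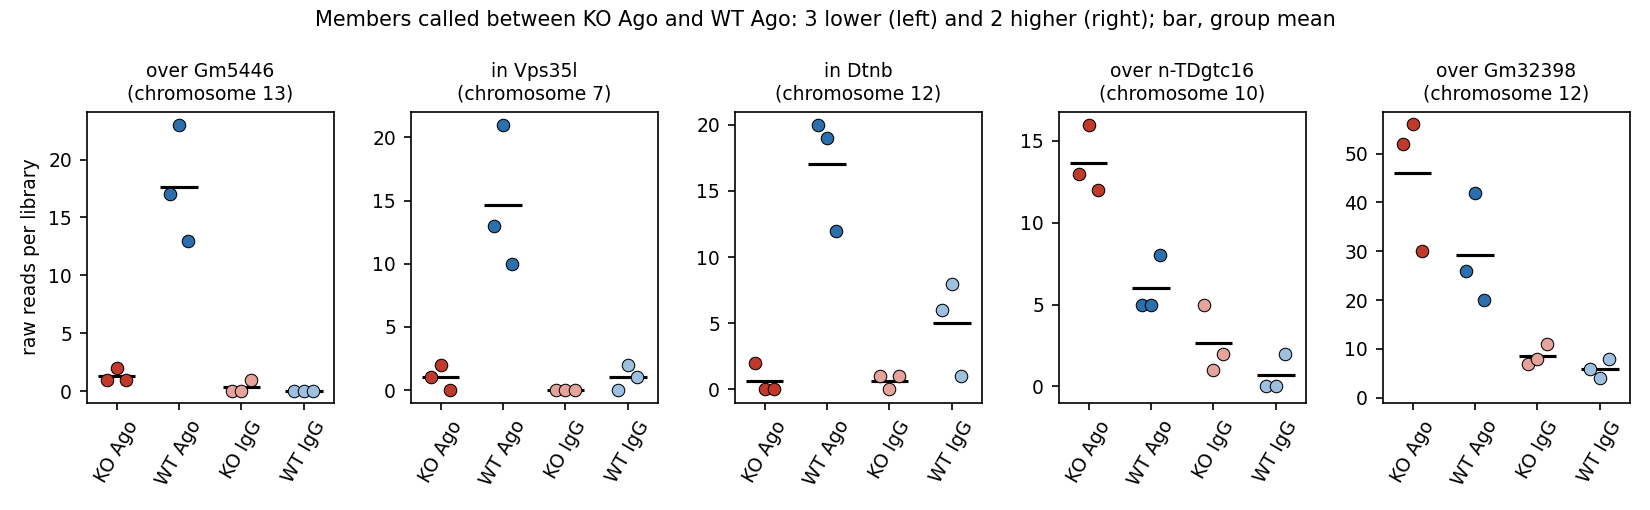
Raw reads per library of the 5 uncoded intergenic peaks called between KO Ago and WT Ago, in the 4 groups; points are libraries and bars group means. In the 3 peaks on the left KO Ago has at most 2 reads and WT Ago 10 to 23; in the 2 on the right KO Ago has the higher mean.

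In the IgG libraries, 84 members were tested between KO and WT and none passed (edgeR, 0.0% of the 190 peaks tested in either direction). None was at an unadjusted p under 0.05, against 2 lower of the 190, and none was called by DESeq2. For the interaction of genotype and antibody, 451 members were tested and none passed (edgeR, 0.0% of 1364 peaks), and DESeq2 called none. At an unadjusted edgeR p under 0.05, 7 were higher and 6 lower, against 18 higher and 36 lower of all 1364 peaks. Of the 5 members called between KO Ago and WT Ago, only chr12:5643357-5643379 had enough reads over the 12 libraries for this test (log2 0.20 ± 0.69, edgeR adjusted p = 0.998), and whether the genotype change of the other 4 differs between Ago and IgG was not tested.

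The authors' deposited table of differential peaks lists 646 of these peaks. In it, 204 were lower in KO and 14 higher at a false discovery rate under 0.05, against 35.7% lower and 1.29% higher of all 6651 peaks listed. Every peak listed there has an IgG ratio under 0.2 and, in the lowest library of at least 1 genotype, a peak height of at least 3, so the filter favours peaks that differ, and these counts are a description. Of the 135 members with at least 3 reads in the lowest library of both genotypes, 6 were lower (4.44%) and none higher in the authors' deposited table. Over all 2212 listed peaks of that kind, 7.05% were lower and 0.0452% higher. Of the 329 that reached this only in WT, 194 were lower (59.0%, against 68.4% of all 3197 such peaks). Of the 173 that reached it only in KO, 14 were higher (8.09%, against 7.38% of all 1125 such peaks). Of the 9 that reached it in neither, 4 were lower, against 23.9% of all 117 such peaks. Of the 204 lower, 70 had no KO Ago read, against 497 of the 2372 lower over all listed peaks.

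Many members too low to test were read in 1 genotype only. No read in any KO Ago library with a read in each WT Ago library was found for 730 members (5.46%), against 4.34% of all peaks and 1036 intergenic peaks with a locus code (11.8%). The reverse, no WT Ago read with a read in each KO Ago library, was found for 45 members (0.336%), against 0.236% of all peaks. The deepest Ago library was a WT and the shallowest a KO library. The 45 members held 306 KO Ago reads, and the 730 members 6630 WT Ago reads. These counts come from sorting peaks by their reads and carry no test. In the IgG libraries, which the sorting did not use, the 730 members took 0.196%, 0.464% and 0.284% of peak reads in KO and 0.584%, 1.18% and 0.435% in WT, so the groups overlapped. The highest of them by WT Ago reads, chr11:18211942-18211959 (plus strand, in no RefSeq gene), had none in KO Ago and 18, 11 and 15 reads in WT Ago, against none in KO IgG and 3, 2 and 3 in WT IgG.

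Sequence could be read only for the 65 members (0.486%) that lie wholly inside a RefSeq promoter window, since no genome was given. Several of these resembled a mature microRNA on the peak's own strand. In a local alignment to 1674 mature mouse microRNAs (match 1, mismatch or gap -1), 8 of the 65 (12.3%) scored 15 or more, against 0.715% of 21-base segments taken from bases 140 to 160 of all 32851 promoter windows. The members differ in length among themselves, with a median of 21 bases over all members, so the lengths compared are not equal. The member most like a microRNA of the deleted locus and 4 of those 8 are shown, chosen after their values were seen. The 4 not shown were most like miR-483-3p (score 17), miR-540-5p (16), miR-673-5p (15) and miR-326-3p (15). The member most like miR-30a-5p was equally like miR-30e-5p and miR-30f. Each member shown stands before the microRNA it resembled, with the longest shared stretch in capitals (RefSeq, GRCm38.p6).
chr4:100689174-100689192 minus strand: aatAGTATAGATGtactaa
miR-144-3p: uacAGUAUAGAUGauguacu
chr9:48964967-48964987 plus strand: TGTAAACATCCgactggacaa
miR-30a-5p: UGUAAACAUCCucgacuggaag
chrX:71991680-71991700 minus strand: TAAAGTGCTGACAGTGttcca
miR-106b-5p: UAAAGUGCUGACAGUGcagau
chr13:59216697-59216716 plus strand: TAGCAGCACAatggtattag
miR-15b-5p: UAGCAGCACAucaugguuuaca
chr1:21193274-21193294 plus strand: gtatgtttcctgCTTTATGGA
miR-142a-3p: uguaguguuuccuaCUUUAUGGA

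The peak that resembled miR-144-3p was read in WT only among Ago libraries. It had none in KO Ago and 8, 5 and 4 reads in WT Ago, against 1, 0 and 0 in KO IgG and 2, 2 and 1 in WT IgG. Its alignment score to miR-144-3p was 12, reached by 0.00304% of promoter segments. It was too low to be tested, and the letters are those of the genome at the peak, not of the reads. In all, 4 of the members that scored 12 or more had no KO Ago read, and the other 3 were most like microRNAs of other loci. Of these, the member at chr2:112141840-112141859, most like miR-340-5p with a score of 13, had 7 reads in WT Ago. The member at chr6:83125297-83125319, most like miR-1195 with a score of 12, had 6 reads in WT Ago. Its score to miR-451a was 9, reached by 0.621% of promoter segments. The other 4 members shown were read in both genotypes. The one like miR-30a-5p had 12, 15 and 13 reads in KO Ago and 13, 14 and 13 in WT Ago, against 6, 4 and 3 in KO IgG and 6, 5 and 4 in WT IgG. The one like miR-142a-3p, a microRNA of blood cells, had 14, 14 and 11 reads in KO Ago and 11, 9 and 9 in WT Ago, against 6, 6 and 4 in KO IgG and 8, 9 and 5 in WT IgG. In both peaks the Ago reads ran from 9 to 15 across libraries whose depth differed 3.06-fold.

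A second group of sequences went with IgG. The letters TCTCCCA occurred on the peak strand in 6 of the 65 members, against 0.189% of the 21-base promoter segments read on 1 strand and 0.441% on either strand. All 6 had an IgG ratio of at least 1, as did 15 of the 65 members in all. They are shown with these letters in capitals, because they lie at 6 separate places, all with more IgG than Ago reads in sum.
chr12:116281149-116281168 minus strand: cgaggccTCTCCCAgagagg
chr9:10904863-10904881 plus strand: tgggtcTCTCCCAgagtgg
chr4:107923632-107923650 plus strand: ttggccTCTCCCAgagccc
chr8:13338623-13338640 plus strand: gccccTCTCCCAgggcgg
chr5:114568049-114568065 minus strand: cgccTCTCCCAgggcgc
chr8:91135627-91135647 plus strand: ggaggcccTCTCCCAtggcgg
The first of these had 8, 6 and 7 reads in KO Ago and 6, 7 and 7 in WT Ago, against 10, 8 and 9 in KO IgG and 9, 8 and 8 in WT IgG, so each IgG library had more reads than any KO Ago or WT Ago library or as many. The motif was chosen after these sequences were seen, and no test was made on it.

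Some members shared their reads with peaks in expressed genes, so that neither place can be taken as the source. Of the 384 members with 50 or more reads over the 12 libraries, 26 had counts equal to those of another peak or within 10% in every library, 17 of them identical. For 22 of the 26, the other peak lay in a named gene, and 19 shared with a peak on another chromosome. Partners included 3′ UTR peaks of Ddx5, an RNA helicase gene, of Ccnb1, which encodes cyclin B1, and of Eif4a2, a translation factor gene. The pseudogenes Ccnd3-ps, Glud-ps and Mif-ps held members that shared reads with Ccnd3, Glud1 and Mif. Of the 13 sharing members tested between KO Ago and WT Ago, the one over Gm5446 was the only one that passed, against 19.1% of all 2425 peaks tested.

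A run on chromosome 6 matched a 3′ UTR elsewhere at most of its peaks. It held 12 peaks over 1071 bases on the plus strand, the first of them 7113 bases from Fam71f2, of which 8 were uncoded members and 4 carried a locus code. The offset to Pim1, a kinase gene on chromosome 17 with 28 peaks, was the median over the members that shared reads with it. At this offset, within 20 bases, 8 of the 12 peaks had a Pim1 peak, which for those members followed from the choice. Reads were close in 6 of these pairs and not in the others, where the members at chr6:29297797-29297821 and chr6:29298460-29298481 had 6 and 13 reads over all libraries and their Pim1 peaks 43 and 56. The member at chr6:29298707-29298753 had 7, 23 and 16 reads in KO Ago and 28, 42 and 35 in WT Ago, and 156 reads over all libraries, against 160 for its Pim1 peak. Its log2 change between KO and WT was -0.98 ± 0.38 and that of the Pim1 peak -1.04 ± 0.39 (edgeR adjusted p = 0.096 and 0.079). Toward the other end of the run, the members at chr6:29298013-29298053, with a 7-mer-m8 code for miR-16-5p, and chr6:29297956-29297992 had no Pim1 peak at the offset. The first had 22, 40 and 20 reads in KO Ago and 14, 32 and 10 in WT Ago, a log2 change of 0.84 ± 0.31 (edgeR adjusted p = 0.084). The second had 10, 12 and 15 reads in KO Ago and 4, 10 and 9 in WT Ago, a log2 change of 0.96 ± 0.47 (adjusted p = 0.22). No member of the run passed the test between KO Ago and WT Ago, while the coded peak at chr6:29298841-29298867, at the far end, changed by -2.19 (edgeR adjusted p = 5.0e-04).

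**Figure D5:**
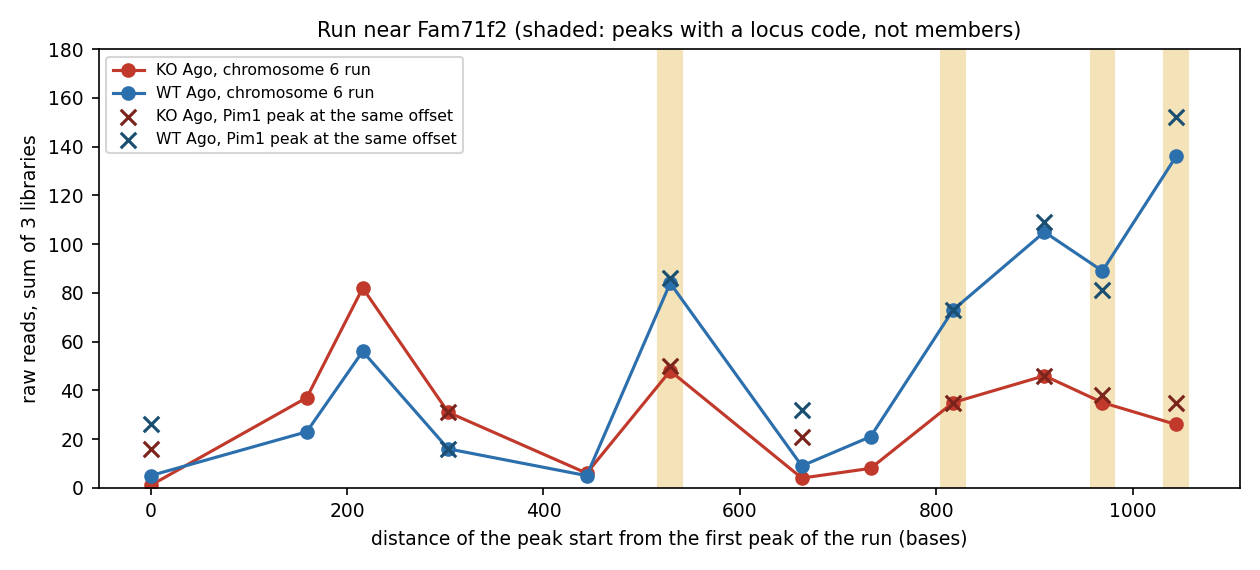
Raw Ago reads (sum of 3 libraries) of the 12 peaks of the chromosome 6 run against the distance in bases of each peak's start from the first; crosses are the Pim1 peaks at the same offset, and shaded peaks carry a locus code. KO Ago lies above WT Ago at the 4 peaks with 82, 37, 31 and 6 KO reads, of which the one with 31 has a Pim1 peak with the same reads, and below it at the other 8.

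Peaks over tRNA genes were a small group, chosen after their values were seen, so no test was made on their sum. The 88 members, over tRNA genes of 33 anticodons, held 1720 Ago and 736 IgG reads. They took 0.156%, 0.145% and 0.182% of peak reads in KO Ago and 0.0510%, 0.0690% and 0.0922% in WT Ago, so every KO Ago library lay above every WT Ago library. In IgG the peaks over tRNA genes took 0.352%, 0.415% and 0.504% in KO and 0.245%, 0.323% and 0.427% in WT, with overlap. Erythroid marker genes took 1.24% to 1.52% in KO Ago and 1.72% to 2.06% in WT Ago. They took 1.43% to 2.49% in KO IgG and 1.27% to 2.29% in WT IgG. Their part in the tRNA shares was not tested. Peaks over glutamate CTC tRNA genes had 105 reads in KO Ago and 23 in WT Ago, against 14 in KO IgG and 15 in WT IgG. Those over aspartate GTC tRNA genes had 116 reads in KO Ago and 68 in WT Ago, against 52 in KO IgG and 32 in WT IgG. Those over leucine CAA tRNA genes were level, with 97 reads in KO Ago and 94 in WT Ago, against 49 in KO IgG and 42 in WT IgG. Of the 4 peaks over tRNA genes tested between KO Ago and WT Ago, 1 was higher, the aspartate peak described above. Among all 2425 peaks tested, 1.4% were higher.

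Match codes were less frequent than over all peaks for miR-16-5p, which is expressed in most tissues, and for miR-122-5p, but not for miR-21a-5p. The members were narrower, with a median of 21 bases against 27 over all peaks, and the part of width was not tested. A 6-mer or longer match was coded for miR-16-5p in 551 members (4.12%, against 6.38% of all peaks), for miR-122-5p, the abundant hepatocyte microRNA, in 132 (0.986%, against 1.63%), and for miR-21a-5p in 145 (1.08%, against 0.943%). Any of the 3 codes, offset matches included, was present in 1076 members. Of the 7 members with a miR-16-5p match tested between KO Ago and WT Ago, none passed, and their median log2 change was 0.04. Among all 2425 peaks tested, 19.1% passed and the median was 0.09.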

How the data were processed

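Ago and control IgG HITS-CLIP libraries of fetal liver were analysed from the deposited peak tables. The submitters' processing notes name build mm10 and the tools STAR, cutadapt, limma and bedtools, without versions or roles. Per the column description deposited with the tables, the authors' counts are reads that overlap a peak by at least 16 bases, the authors' peak height is a coverage signal over all Ago libraries, the seed codes are a score of the best match, and the IgG ratio is of unscaled peak heights. The authors' deposited table gives log2 fold changes, p-values and false discovery rates from voom and limma. The members and lists were chosen with earlier results of these data known. Counts over the whole table were tested with edgeR 4.0.16 (R 4.3.3; TMM, filterByExpr with minimum count 10 and minimum total 15, Benjamini-Hochberg threshold 0.05), each pairwise comparison on its 6 libraries and the interaction on all 12. Shares and ratios were tested by exact two-sided permutation over libraries. The test was checked on simulated counts. Named peaks were those called between KO and WT, at most 10 in each direction, the 10 with the highest Ago level, up to 10 above and 5 below WT IgG by smallest p, and up to 5 each from the IgG and interaction tests; other peaks were named after their values were seen. Alternatives were library size alone, RLE factors, no filter, a minimum count of 5, DESeq2 1.42.0, limma-voom 3.58.1, the authors' filter and leaving out each library. Positions used RefSeq GRCm38.p6, whose 27025 of 49980 genes had a strand in the promoter table. Chromosome 18 members are given without sequence. The planned sequences of the named peaks could not be read without a genome, so those shown were chosen later from the promoter windows.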

Additional observations from a re-analysis of the deposited data

How the results depend on the processing

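The 3 members lower in KO Ago than WT Ago stayed lower and past the threshold in every alternative in which they were fitted, and the 2 higher ones kept their direction in all and were lost in 8 and 7 alternatives. The count of members called lower in KO was 33 with a minimum count of 5 (655 tested), 204 with no filter (13382 tested) and 151 among the peaks of the authors' filter (646 tested), and that of higher ones was 6, 7 and 45. In the main setting, 17.6% of all 2425 peaks tested were lower and 1.4% higher. Counts over all peaks were not made in the alternatives, so no count of members given here can be read as particular to the members. The higher count was 0 by DESeq2 and 4 with whole-table library sizes. Leaving out 1 library gave 2 to 39 lower and 0 to 6 higher, with 117 to 270 members tested: 39 lower without KO Ago library 3, 37 without 13, 8 without 12, 8 without WT Ago library 9 and 7 without 10, and no higher one without WT Ago library 1 or 9. For KO Ago against KO IgG, the lower count was 39 by DESeq2, 171 with library size alone, 296 with a minimum count of 5 and 203 with whole-table sizes. The higher count was 6, 4, 19 and 1 in the same settings, and 46 with no filter. For WT Ago against WT IgG, the lower count was 99 by DESeq2 and 389 with a minimum count of 5. The higher count was 5 with RLE factors, 14 with a minimum count of 5, 62 with no filter and 1 with whole-table sizes. Leaving out 1 library gave 5 to 247 lower and 4 to 14 higher in KO and 10 to 285 lower and 2 to 11 higher in WT, with 128 to 461 and 97 to 574 members tested. Without any 1 Ago library at most 17 were lower in either genotype, with 97 to 128 tested. With library size alone, the median of all tested peaks was -0.90 in KO and -0.67 in WT. The whole-table scaling, added after seeing the data, turned the members at chr12:5643357-5643379 (-0.44 in KO, -0.90 in WT) and chr12:5643150-5643184 (-0.43 in WT) below IgG, without a call. Between KO IgG and WT IgG, 1 member was higher with no filter. Leaving out 1 library gave 0 to 0 in that comparison and in the interaction. The share of reads, KO Ago minus WT Ago, ranged from -0.48 to 2.82 percentage points and turned negative without KO library 3 (-0.30) or WT library 9 (-0.48). The log2 ratio to intron peaks ranged from -0.25 to 0.13 and turned positive without KO library 12 (0.13) or WT library 1 (0.07) or 10 (0.01). The ratio to coded intergenic peaks stayed between 0.30 and 0.41. The cause of these changes was not tested. No paired analysis was possible because the sources used here do not give which libraries share a liver. The library numbers are unique to each library and show no pairing. With a median of 8 Ago reads, most members did not pass the main filter, and counts over them rest on the settings above.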
